A study of Homo sapiens with 4 samples.

Results

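The KLF (Krüppel-like factor) genes described here are KLF2, KLF3, KLF4, KLF5, KLF6, KLF7, KLF9, KLF10, KLF11 and KLF13. They were taken from the deposited table of MDA-MB-231 cells by their gene symbol, which gave 26 of its 43596 transcripts and 10 of its 15113 genes, and each of the 10 genes had at least 1 row. MDA-MB-231, an established line of human breast cancer cells of the triple-negative kind, was grown here in 6-well plates and received either DMSO or 10 µM KH-3 for 24 h. DMSO is the solvent. KH-3 is an inhibitor of the RNA-binding protein HuR. Each treatment had 2 libraries, 4 in all. All groups are 1 cell line. The table has no column for a single library: it holds the authors' mean normalized read count of each transcript over libraries, and which libraries entered that mean is not given in the sources used here. The authors also describe a group with a lower dose of KH-3, which is not among these 4 libraries, and whether it entered the mean is unknown. The values below therefore describe how much of each KLF mRNA the cells held, not split by treatment, with no SD and no n, and the sequencing depth is unknown. The authors' own comparison of KH-3 with DMSO was not used, and the response of the KLF genes to KH-3 is not analysed here.

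KLF proteins are transcription factors that bind GC-rich and CACCC-type DNA through zinc fingers at their C-terminal end, while their N-terminal parts differ and recruit different partners. KLF2, KLF4, KLF5, KLF6 and KLF7 are known mainly as activators that work with histone acetyltransferases. KLF3 represses through the corepressor CtBP, and KLF9, KLF10, KLF11 and KLF13 bind the corepressor SIN3A. In epithelial tissue the family is known for balancing proliferation against differentiation. HuR binds AU-rich elements, often in the 3′UTR of short-lived mRNAs, and many mRNAs of transcription factors carry such elements.

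Sequences that carry the descriptions below are shown first. KLF5 was listed with 2 coding transcripts that start 4029 bases apart, and the promoters at both starts are shown because the reads divided between them. The promoters of KLF6 and KLF9 are shown because these genes had the highest and the lowest level of the 10. Each promoter runs from 250 bases before to 50 bases after the start in RefSeq (GRCh38.p14), is written 5′ to 3′ on the strand of the gene, and has in capitals each GGGCGG or its reverse complement CCGCCC, the core of a GC box. The upstream KLF5 start is at chr13:73054726-73055025 on the plus strand, the downstream one at chr13:73058755-73059054 on the plus strand, KLF6 at chr10:3785160-3785459 on the minus strand and KLF9 at chr9:70414608-70414907 on the minus strand.
KLF5 upstream: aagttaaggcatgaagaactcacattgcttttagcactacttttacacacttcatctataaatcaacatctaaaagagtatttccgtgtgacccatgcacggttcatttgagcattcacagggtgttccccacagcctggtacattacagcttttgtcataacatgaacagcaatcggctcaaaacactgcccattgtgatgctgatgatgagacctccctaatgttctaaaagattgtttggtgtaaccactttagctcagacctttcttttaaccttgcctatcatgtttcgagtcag
KLF5 downstream: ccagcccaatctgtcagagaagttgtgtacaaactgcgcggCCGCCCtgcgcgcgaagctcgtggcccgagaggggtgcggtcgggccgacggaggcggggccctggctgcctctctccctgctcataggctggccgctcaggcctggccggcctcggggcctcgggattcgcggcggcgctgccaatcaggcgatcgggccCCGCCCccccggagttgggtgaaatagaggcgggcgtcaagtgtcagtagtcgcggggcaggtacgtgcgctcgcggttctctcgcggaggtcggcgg
KLF6: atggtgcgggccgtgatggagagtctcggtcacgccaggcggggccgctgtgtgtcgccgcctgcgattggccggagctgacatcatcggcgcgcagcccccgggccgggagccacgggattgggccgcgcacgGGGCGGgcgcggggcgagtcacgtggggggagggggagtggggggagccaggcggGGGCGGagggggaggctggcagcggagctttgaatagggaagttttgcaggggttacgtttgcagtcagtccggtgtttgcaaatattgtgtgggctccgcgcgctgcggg
KLF9: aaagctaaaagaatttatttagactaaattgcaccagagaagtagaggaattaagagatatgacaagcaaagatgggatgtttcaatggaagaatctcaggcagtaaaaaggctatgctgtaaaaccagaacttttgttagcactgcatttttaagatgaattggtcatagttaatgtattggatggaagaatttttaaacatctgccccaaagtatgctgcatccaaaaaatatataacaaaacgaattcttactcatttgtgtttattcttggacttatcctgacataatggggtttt

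The other sequences are from transcripts of GENCODE release 44 on hg38. KLF4 was the member with most of its level in transcripts of the type retained intron, and both ends of the intron that KLF4-003 keeps are shown with the first and last 2 bases of that intron in capitals. They lie on the minus strand at chr9:107487275-107487304 and chr9:107487183-107487212.
KLF4 intron 3, 5′ end: cattaccaagGTcagtcccggggatttgta
KLF4 intron 3, 3′ end: cccaccttcttcacccctAGagctcatgcc

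The last set holds each UAUUUAU (in capitals) in the 3′UTR of a member with 11 bases on either side, as RNA, because HuR is directed at such elements. The sites lie at chr10:3778341-3778369 (minus strand) for KLF6, chr13:73077177-73077205 (plus) for KLF5, chr4:38701332-38701360 (plus) for KLF3, chr2:10052880-10052908 (plus) for KLF11, chr19:16327101-16327129 (plus) for KLF2 and chr2:207075429-207075457 (minus) for KLF7.
KLF6: uauguuucucuUAUUUAUgccuugaggac
KLF5: uuguuuaucuuUAUUUAUuuugugguaau
KLF3: cuuguauuuguUAUUUAUgaaccccugcc
KLF11: uuuuagaaaaaUAUUUAUauuguuggugc
KLF2: acugugacuggUAUUUAUuggacccagag
KLF7: gccuucucuggUAUUUAUaauauaucaca

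To place the members on a scale that allows comparison between genes, each transcript's mean normalized read count was divided by its length in kilobases and summed over the transcripts of a gene. This sum is the level of the gene in what follows, and its unit is mean normalized reads per kb. KLF6, KLF10 and KLF5 were the most abundant members and together held 79.0% of the summed level of the 10 genes. KLF9 and KLF7 were the least abundant, and the highest member was 36.3 times as abundant as the lowest. The median level over all 15113 listed genes was 108, and 4 members lay above it and 6 below. Medians, quartiles and percentiles of all genes are here and below among the listed genes only, and no listed transcript had a mean normalized read count under 7.34. Above the upper quartile of all genes (316) were 3 members, and below the lower quartile (27.4) was 1, KLF9. The median member stood at percentile 44.03 of all genes.

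**Figure D1:**
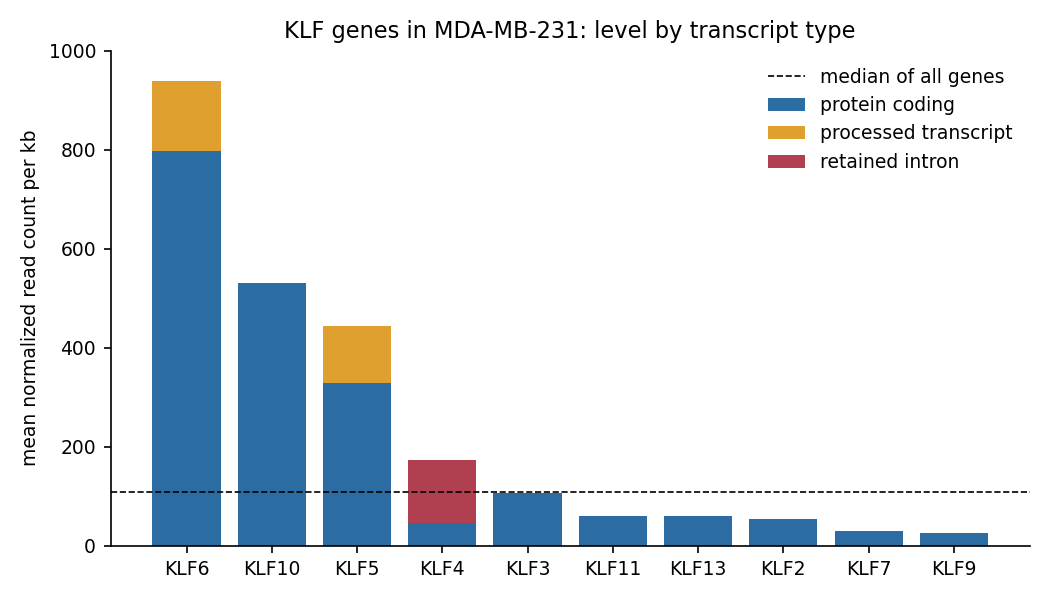
Bars give the level of each KLF gene (mean normalized read count per kb, summed over its transcripts), stacked by transcript type, and the dashed line is the median of all genes. KLF6 reaches 939.6, KLF4 is the member in which the retained-intron part exceeds the protein-coding part, and KLF3 lies just under the line.

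Among the activators, KLF6, a widely expressed factor known as a tumor suppressor with several splice forms, had a level of 939.6 reads per kb and stood at percentile 91.8 of all genes. KLF5, a factor of proliferating basal epithelial cells, had a level of 445 at percentile 81.5. KLF4, which acts in epithelial differentiation and in reprogramming to pluripotency, followed with 172 at percentile 60.7. These 3 genes lay above the median gene on the per-kb scale. KLF2, best known from the quiescent endothelium, had a level of 53.1 at percentile 36.0. KLF7, known mainly from neurons, had a level of 30.6 at percentile 26.9. The 5 activators thus ranged from 30.6 to 939.6 and made up 67.7% of the summed level of the members.

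Among the SIN3A-binding members, KLF10, first described as an early gene induced by TGF-β, stood apart with a level of 531 reads per kb at percentile 84.4. Its closest relative KLF11 had a level of 60.4 at percentile 38.4. KLF13, known as an activator of CCL5 in T lymphocytes, had 59.8 at percentile 38.3, so that the levels of KLF11 and KLF13 differed by a factor of 1.01. KLF9, a gene induced by glucocorticoids and thyroid hormone, had the lowest level of all members, 25.9 at percentile 24.1. Together the 4 SIN3A-binding members held 27.9% of the summed level, most of it from KLF10. KLF3, the CtBP-binding repressor, had a level of 106 at percentile 49.6, which was 0.983 of the median gene, and 4.39% of the summed level.

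With no values per library, neighbours in this order could not be tested against their spread. The steps between neighbours were 1.77 times from KLF6 to KLF10, 1.19 from KLF10 to KLF5, 2.58 from KLF5 to KLF4, 1.62 from KLF4 to KLF3 and 1.76 from KLF3 to KLF11. Below that they were 1.01 from KLF11 to KLF13, 1.13 from KLF13 to KLF2, 1.73 from KLF2 to KLF7 and 1.18 from KLF7 to KLF9. KLF6, KLF10 and KLF5 kept places 1, 2 and 3 under each of the 4 other ways of computing a level that were tried. KLF4 ranged from place 4 to place 8, KLF11 from 5 to 8 and KLF2 from 7 to 10. KLF7 ranged from 8 to 10 and KLF9 from 9 to 10, so KLF9 was not the lowest in every computation.

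**Figure D2:**
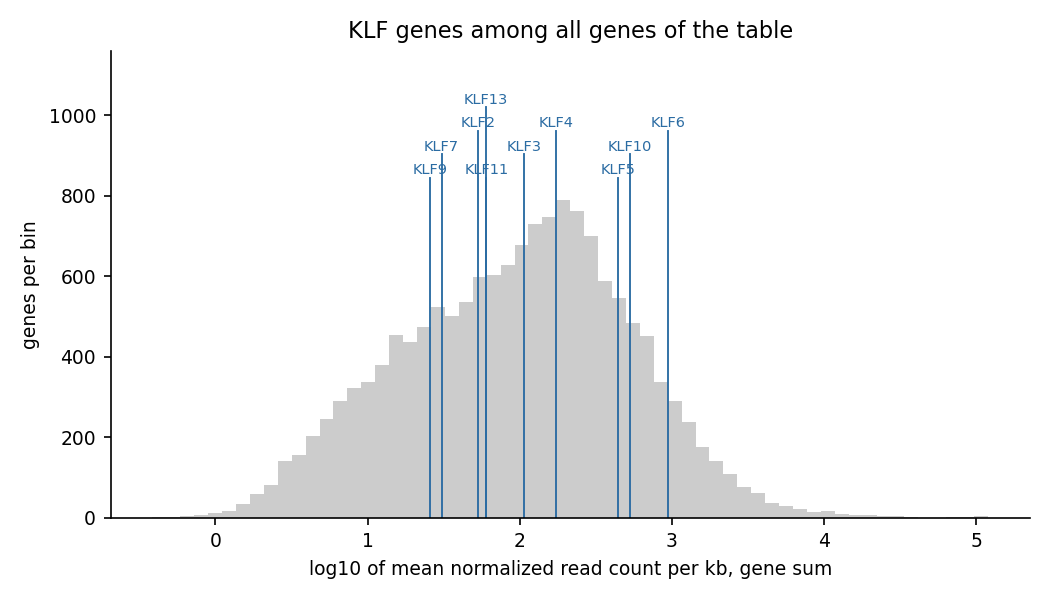
The histogram gives the number of genes by log10 of their level (mean normalized read count per kb) over all 15113 genes, and each vertical line marks 1 KLF gene. KLF6, KLF10 and KLF5 stand on the right shoulder of the distribution, while KLF7 and KLF9 stand on its left side.

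The 10 members were not the whole family. Of 8 other KLF genes, KLF16, KLF12, KLF15 and KLF8 were listed, and KLF1, KLF14, KLF17 and KLF18 had no row. KLF16 had a level of 221 reads per kb, between those of KLF5 and KLF4, and KLF12 had 63.8, just above KLF11. KLF15 and KLF8 had 12.2 and 9.41, below the level of KLF9. The related SP genes bind GC boxes with the same kind of fingers, and 6 of 9 were listed. SP3 had a level of 525, between those of KLF10 and KLF5, followed by SP1 with 303 and SP2 with 139.8. Among the 20 listed KLF and SP genes, KLF6 and KLF10 held places 1 and 2 on the per-kb scale.

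Co-regulators that KLF factors recruit were mostly abundant. All 9 of those examined were listed and 8 lay above the median gene, against 4 of the 10 KLF members. The histone deacetylases HDAC1 and HDAC2 had levels of 1555 and 1397 reads per kb. Of the genes for CtBP, through which KLF3 represses, CTBP1 had 473 and CTBP2 had 53.9. SIN3A and SIN3B, partners of KLF9, KLF10, KLF11 and KLF13, had 404 and 376. The acetyltransferases EP300, CREBBP and KAT2B had levels of 241, 219 and 261. Of 7 genes known to control KLF synthesis or turnover, all were listed and 3 lay above the median gene. WWP1, a ubiquitin ligase that acts on KLF5 and KLF2, had 328, whereas FBXW7, a ligase subunit with the same substrates, had 89.9. MAPK7 and MEF2C, which act upstream of KLF2 in endothelium, had 17.9 and 6.88, while MEF2D had 229.6 and MEF2A 134.

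The cell type label was checked on markers of this line. VIM, CD44, EGFR, AXL and CAV1 were all listed, with levels from 427 to 10135 reads per kb. ESR1, PGR and CDH1 had no row, and ERBB2 and EPCAM were at 44.3 and 43.3, below the median gene. KRT19, which had been put with the low or absent genes, went against that with a level of 2426.

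The transcripts showed which forms of each KLF gene carried its reads. The 26 transcripts comprised 20 protein-coding ones, 4 of the type processed transcript and 2 of the type retained intron. Their mean normalized read counts ran from 14.2 to 3047, against a lowest value of 7.34 in the table. KLF2, KLF9 and KLF13 were listed with 1 transcript each, with mean normalized read counts of 107, 134 and 408. In 7 members all listed transcripts were protein-coding. Of all genes with a protein-coding transcript, 77.7% also had another type listed.

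KLF6 had 6 transcripts. KLF6-001 took 69.7% of the level of the gene, with a mean normalized read count of 3047 over 4656 bases, or 654 reads per kb. KLF6-201 and KLF6-002 followed with levels of 73.7 and 68.8, and the processed transcripts KLF6-003, KLF6-004 and KLF6-006 had 63.2, 41.5 and 37.8. The main form thus stood far above the others, which lay closer together. KLF6-001 shares nearly all of its exons with the others: 1 base of its exons in release 44 lies in no other listed KLF6 transcript, and KLF6-201 has 72 such bases. Its level relative to the other forms therefore rests on exon junctions and on how the authors' program eXpress divided shared reads.

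KLF10 was concentrated in KLF10-001, with a mean normalized read count of 1581 and 96.1% of the level of the gene. KLF10-002 starts 1350 bases further downstream and had a level of 20.5 reads per kb against 510.5 for KLF10-001. KLF3 was similar, with 92.2% of its level in KLF3-001, at a mean normalized read count of 503. KLF3-002 had a count of 15.4, near the lowest values of the table.

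KLF5 divided between starts. KLF5-201, which starts at the upstream site, had a mean normalized read count of 729 and a level of 247 reads per kb. KLF5-001, which starts at the downstream site, had a count of 293 and a level of 82.3. The upstream form was therefore the more abundant coding transcript of KLF5 in this table. KLF5-003, a processed transcript of 767 bases, had a count of 88.6 but a level of 116 because it is short. The own sequence of these transcripts is 186 bases for KLF5-201, 584 for KLF5-001 and 85 for KLF5-003, and the remaining bases are shared. The coding sequence of KLF5-201 gives 366 residues and that of KLF5-001 gives 457, with the same C-terminal end.

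The KLF5 promoters shown above also differ in composition. The upstream one has 40.7% G and C, no GGGCGG on either strand, 1 CACCC and 1 TATAAA. The downstream one has 71.3% G and C, 2 GGGCGG and 2 CACCC. The median over the 35116 promoters of the RefSeq table was 58.7% G and C. Over both strands, GGGCGG was found in 45.0% of these promoters, CACCC in 59.9% and TATAAA in 11.5%, and neighbouring GGGCGG and CACCC matches may share bases. The table has 13 promoters for 8 of the members, and 8 of the 13 hold GGGCGG and 7 hold CACCC. The KLF6 promoter has 70.7% G and C and 2 GGGCGG. The KLF9 promoter has 32.7% G and C, which puts it at percentile 2.59 of all promoters, and holds none of these 3 motifs. KLF2 and KLF13 have promoters of 80.7% and 78.3% G and C with 6 and 3 GGGCGG, and their levels were below the median gene. Among the 13 promoters, that of KLF9 has the lowest GC content and that of KLF2 the highest. KLF10 and KLF3 are not among the 8 members with a promoter. A relation between GC content and level was not tested.

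KLF4 differed from the other members in the type of its transcripts. KLF4-003, of the type retained intron, had a mean normalized read count of 251 and a level of 92.8 reads per kb, the highest of the gene. The second transcript of this type, KLF4-001, had a count of 78.4 and a level of 32.8. The coding transcripts KLF4-002 and KLF4-201 had counts of 111 and 14.2 and levels of 39.5 and 7.24. Protein-coding forms therefore made up 27.1% of the level of KLF4, the smallest share among the members, and with protein-coding transcripts alone its level was 46.7 and its percentile 29.3. KLF4-003 keeps intron 3 of KLF4-002, which is 102 bases long with 63.7% G and C, and has 102 bases of its own. KLF4-001 begins inside intron 2 and has 180 bases of its own. The coding forms KLF4-002 and KLF4-201 have 3 and 0 bases of their own, so that the coding share of 27.1% rests on how eXpress divided shared reads. An antisense gene overlaps the KLF4 locus in release 44, and no row in the table carries its release 44 name.

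**Figure D3:**
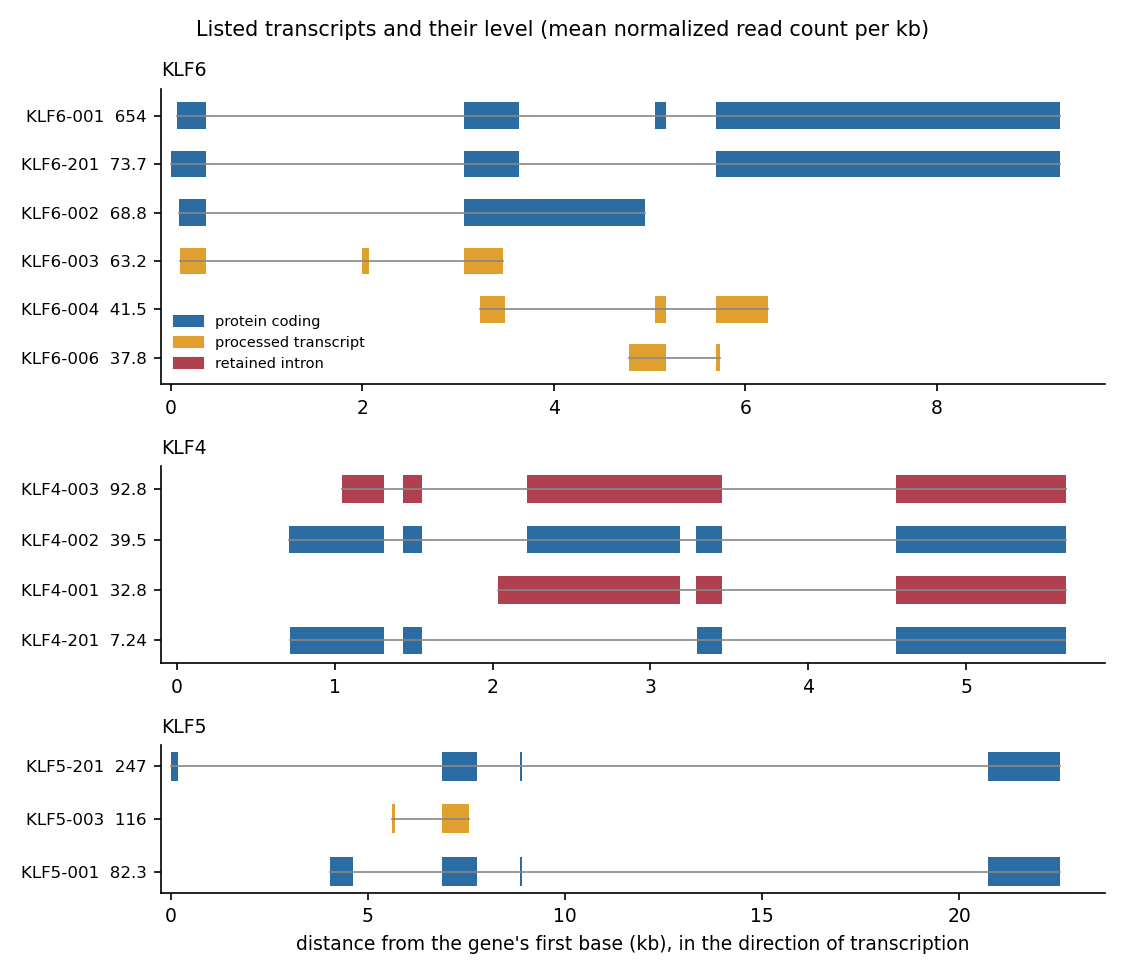
Boxes are exons of the listed KLF6, KLF4 and KLF5 transcripts in GENCODE release 44, drawn against the distance from the first base of the gene in kb, with the level of each transcript (mean normalized read count per kb) beside its name and its type as colour. KLF6-001 at 654 dominates its gene, the highest KLF4 row is the retained-intron transcript KLF4-003 at 92.8, and KLF5-201 at 247 starts before KLF5-001 at 82.3.

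KLF11 was spread over 3 starts. KLF11-202, KLF11-001 and KLF11-201 had mean normalized read counts of 120, 86.4 and 33.0 and levels of 30.8, 21.4 and 8.18 reads per kb, and between 59 and 209 bases were their own. Each of them codes for the 3 fingers. KLF7 had KLF7-001 with a count of 180, or 21.6 reads per kb and 70.4% of its level. KLF7-002 and KLF7-201 had counts of 16.8 and 28.1 and levels of 5.52 and 3.53. The KLF7-001 transcript is 8362 bases long, the longest of the members, so that KLF7 ranks higher by reads (percentile 45.5) than per kb (percentile 26.9).

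To see what the transcripts encode, the coding sequences of release 44 were translated for the 19 of 20 protein-coding transcripts found there. In the highest coding transcript of each member there were 3 C2H2 zinc fingers spanning 81 residues. The fingers end 1 residue before the C-terminal end in KLF2, KLF4, KLF6 and KLF7 and 39 residues before it in KLF13. Of the 19 transcripts, 16 encode all 3 fingers. KLF6-201 and KLF6-002 encode 1 finger each and end in other residues than KLF6-001, and KLF3-002 encodes none. KLF4-201 encodes 145 residues with all 3 fingers and so lacks most of the N-terminal part. Transcripts with 3 fingers made up 77.8% of the summed level of the members. By these transcripts alone, KLF6 had 654 reads per kb, KLF10 531 and KLF5 329, and KLF4 with 46.7 fell to place 8.

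The median identity of the fingers was 82.1% among the activators, 77.2% among the SIN3A-binding members and 66.7% between groups. KLF3, the only member of its group, was an exception among the pairs between groups: its 5 pairs with the activators were 80.2% to 86.4% identical, within the range of the activators among themselves. Over the 45 pairs of members, the 81 residues of the fingers were between 60.5% and 95.1% identical, and 46 positions were the same in all 10. The closest pairs were KLF6 with KLF7 and KLF2 with KLF4, with 77 identical residues each, followed by KLF10 with KLF11 with 71. The activators were 77.8% to 95.1% identical to each other and the SIN3A-binding members 71.6% to 87.7%. Pairs from different groups ranged from 60.5% to 86.4%, the highest of them KLF5 with KLF3. Counting transcripts that encode all 3 fingers, the levels within the closest pairs were unlike for KLF6 and KLF7, with 654 and 27.1 reads per kb, and for KLF10 and KLF11, with 531 and 60.4. They were close for KLF4 and KLF2, with 46.7 and 53.1, but the KLF4 value rests on how eXpress divided shared reads. Summed over all listed transcripts, KLF4 and KLF2 had 172 and 53.1.

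**Figure D4:**
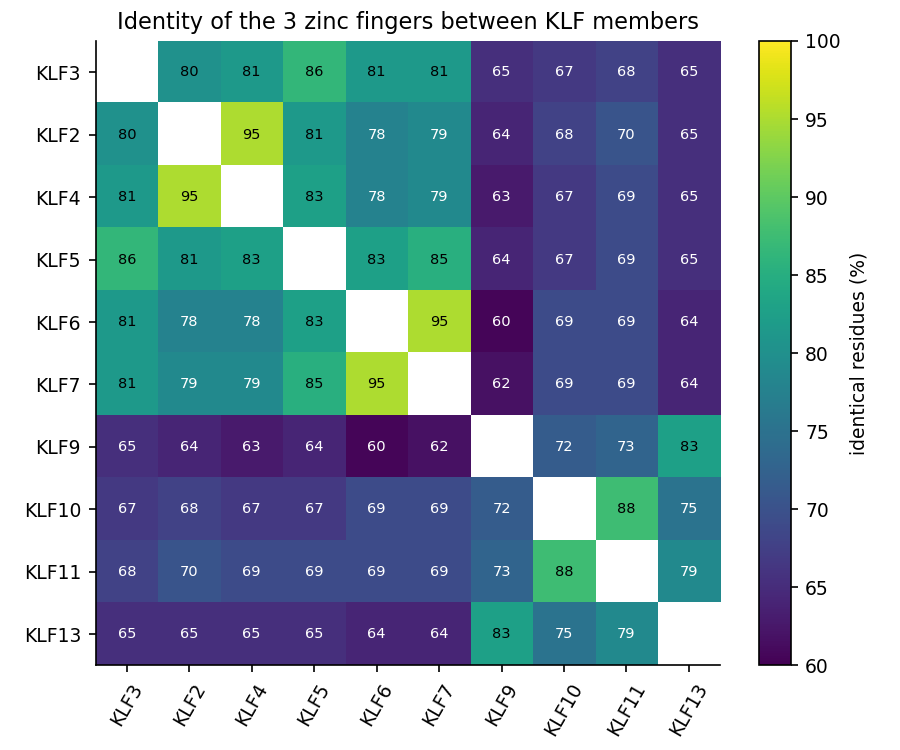
Each cell gives the share of identical residues (%) over the 81 residues of the 3 zinc fingers for a pair of KLF members, ordered by group (KLF3, then the activators, then the SIN3A-binding members). KLF2 with KLF4 and KLF6 with KLF7 are the brightest pairs at 95.1%, and KLF9 with KLF6 is the darkest at 60.5%.

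Because HuR binds AU-rich elements, the 3′UTR of the highest coding transcript of each member was searched in release 44. Of these transcripts only KLF5-201 and KLF11-202 have the same length there as in the table. KLF2-001, for example, has 2018 bases in the table and 2820 in release 44. The 3′UTRs described here may therefore differ from those to which the reads were assigned. All 10 members hold at least 1 AUUUA, against 71.2% of 11410 genes with a 3′UTR. The members have long 3′UTRs, with a median of 2750.5 bases against 1157 for all genes, and among the 6276 genes with a 3′UTR between 899 and 7076 bases 90.6% hold AUUUA. The median 3′UTR of those 6276 genes was 2110.5 bases, so they were not fully matched to the members in length. KLF7 has 20 AUUUA in 7076 bases, KLF3 has 9 in 4254, KLF9 has 8 in 3172, and KLF6 and KLF11 have 6 each in 3543 and 2329. KLF5 and KLF13 have 5 each, in 1655 and 5600 bases, and KLF2, KLF10 and KLF4 have 4, 3 and 2. Per kb of 3′UTR, KLF5 had the highest rate with 3.02 and KLF13 the lowest with 0.893, against a median of 1.68 for all genes and 2.07 for the genes in that length range. KLF7 had a rate of 2.83, at percentile 68.7 of all genes.

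The longer UAUUUAU, shown above for each member that has it, occurs 1 time each in KLF6, KLF5, KLF3, KLF11, KLF2 and KLF7. These 6 of 10 members compare with 33.5% of all genes and 47.1% of the genes in that length range, whose median 3′UTR is shorter. Its first base is number 81 of the 3′UTR in KLF2 and number 384 in KLF11, but number 4080 in KLF3 and number 5767 in KLF7. The KLF5 site continues into a run of U, and the KLF11 site follows a run of A, while the bases after it include G and C. Members with and without UAUUUAU had levels that overlapped, from 30.6 to 939.6 with it and from 25.9 to 531 without it. A match is a description of letters, and binding by HuR was not measured in these data.

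**Figure D5:**
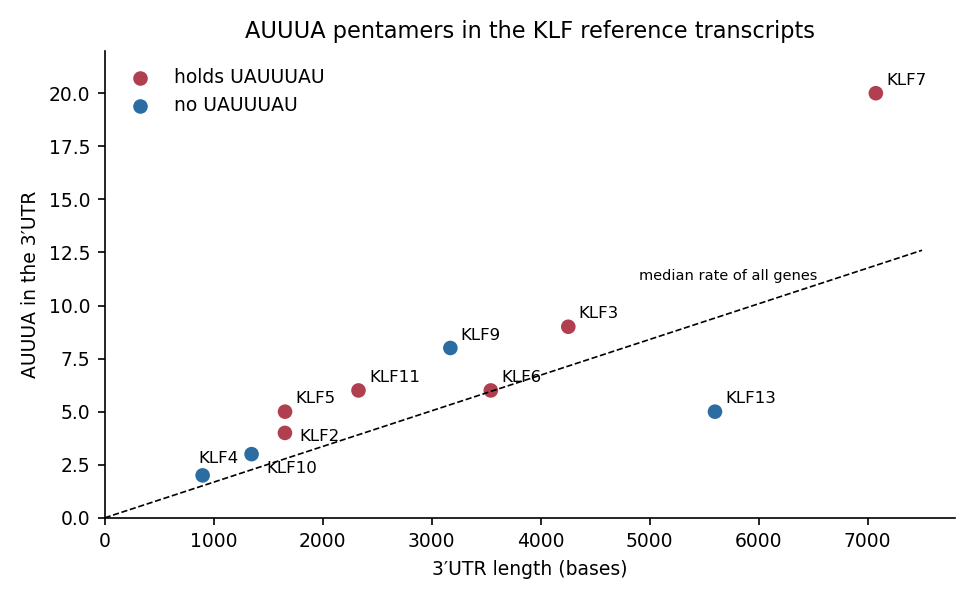
Points give the number of AUUUA in the 3′UTR of the highest coding transcript of each KLF gene against the length of that 3′UTR in bases, red where it also holds UAUUUAU, and the dashed line is the median rate of all genes, 1.68 per kb. KLF7 has the highest number, 20, in the longest 3′UTR, at a rate of 2.83 per kb, and KLF13 with 5 lies below the line.

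The genes lie on hg38 as follows in GENCODE release 44. KLF6 is at chr10:3775996-3785281, KLF10 at chr8:102648784-102655725, KLF4 at chr9:107484852-107490482, KLF9 at chr9:70384604-70414657 and KLF7 at chr2:207074137-207173856, all on the minus strand. KLF5 is at chr13:73054976-73077541, KLF3 at chr4:38664197-38701517, KLF11 at chr2:10042849-10054836, KLF13 at chr15:31326835-31435665 and KLF2 at chr19:16324826-16328685, all on the plus strand. Genes on the opposite strand overlap KLF4, KLF3, KLF11 and KLF7, and no row in the table carries the release 44 name of any of them. Some of these names are accession numbers and names can change between releases, so a row under another name was not excluded.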

How the data were processed

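For mRNA libraries the authors used STAR to map reads against GENCODE release 24, eXpress to divide them among transcripts, and DESeq2 to normalize and compare the estimates. Versions and the strand setting are not given in the sources used here. The labels name hg38. The deposited table gives for each transcript a signal, namely the authors' mean normalized read count over libraries, which is not divided by length. Its other columns hold the authors' log2 fold change, p-value and q-value of KH-3 against DMSO and were not used. It has no value per library, so the planned limma comparison was not run, and depth and replicate spread are unknown.

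Levels are the mean normalized read count per 1000 bases of the transcript length in the table, summed over a gene. The arithmetic of the sum was checked on simulated levels without noise or shared reads, so this check does not cover how reads were divided. Exons, coding sequence and 3′UTRs came from GENCODE release 44, in which 25 of the 26 transcripts were found by ID without version, 15 with the same length, and promoters from RefSeq (GRCh38.p14). Zinc fingers were found by their spacing of C and H residues. Every member was named, and other genes came from lists of relatives, co-regulators and regulators. The members and lists were chosen with earlier results of these data known, and the grouping of members by partner was added after their levels were seen. Scripts ran in Python 3.11.15 with pandas 2.3.3, numpy 2.4.6 and, for figures, matplotlib 3.10.9.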

Additional observations from a re-analysis of the deposited data

How the results depend on the processing

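With no spread between replicates, a value was taken as moved when it changed by over 1.5 times. Of 54 recomputed values 49 did not. Most of these values are percentiles or shares, which cannot exceed 100. The high ones, such as the percentile of KLF6, could therefore not rise by that much. The number of members above the median gene, 4 as reported, was between 3 (protein-coding transcripts alone) and 6 (no division by length). The share of KLF6, KLF10 and KLF5 was between 75.4% and 81.2%, and the median percentile of the members between 34.4 and 59.3. The number of members with the motif searched in the 3′UTR fell from 10 with AUUUA to 6 with UAUUUAU, against 71.2% and 33.5% of all genes. With protein-coding transcripts alone KLF4 fell from percentile 60.7 to 29.3. Without division by length, KLF7, KLF9 and KLF13 rose to percentiles 45.5, 36.2 and 58.1. Leaving out the 4 transcripts with a count under 20 left 22 of the KLF transcripts. No paired analysis was possible because the table has no values per library, and for the same reason no library could be left out and no pseudocount was tried. Levels of transcripts of 1 gene depend on how shared reads were divided: 9 of the 25 matched transcripts have under 100 bases of their own.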
